A study of Mus musculus with 7 samples.

Results

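Notch pathway transcripts were followed through 9 genes in mouse cells undergoing conversion toward oligodendrocyte progenitors: the receptors Notch1 and Notch2, the ligand genes Dll1, Dll3 and Jag1, the target genes Hes1, Hes5 and Hey1, and the related gene Hes6. They were taken by name, not by their values, from the 17784 genes with a count in any library. All 9 had counts in primary progenitors and in 1 converted library, and 5 to 8 had counts in each of the other libraries. The cells were from C57BL/6 mice and formed 7 droplet libraries, 1 per population. Oligodendrocyte progenitors taken from brain (pOPC), the dividing precursors of myelinating oligodendrocytes, served as the reference cell type. Embryonic fibroblasts (MEF) and primary cerebral pericytes (PC), mural cells of brain capillaries, were the untransduced donors. Donor cells that had received virus carrying Olig2 and Sox10 are called MEF-2F and PC-2F, and those that had received Olig2, Sox10 and Nkx6.2 are called MEF-3F and PC-3F. Donors grew in their own media, whereas pOPC and converted cells grew in progenitor medium, so transduction and medium cannot be told apart in a comparison with a donor. The labels give no age of the animals, no time after transduction and no promoter of the viral genes.

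Notch receptors are cut after binding a Delta or Jagged ligand on a neighbouring cell, and the freed intracellular part joins the DNA-binding protein RBPJ to switch on Hes and Hey genes. Hes and Hey proteins are repressors that hold down, among others, the activators of Delta genes, which leaves neighbouring cells in opposite states. In the oligodendrocyte lineage Notch activity is known for keeping precursors undifferentiated.

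Counting used unique molecular identifiers (UMIs), 1 per captured transcript, on 3′ ends. After removal of barcodes under 500 UMIs or with 20% or more mitochondrial UMIs, 1124 of 1140 barcodes were kept as cells, between 82 (MEF-2F) and 290 (PC) each. Library totals lay between 230472 UMIs (MEF-2F) and 1292865 (PC), and medians per cell between 1866 UMIs (MEF-3F) and 6259 (PC-2F). The deposited whole numbers are codes that were turned back into UMI counts, an inference that no label states and on which every value rests. PC, MEF-2F and MEF-3F each join 2 runs of barcodes with codes of their own, called the first and second barcode block below. No barcode occurred in more than 1 library. A level below is counts per 1000000 UMIs of the library (CPM) with an exact 95% Poisson interval. With 1 library per population there is no replicate check and no test; intervals cover counting error only. A gene with 0 UMIs is set at 3 UMIs to give a ratio, which is 2.32 CPM for the deepest library, PC, and 13.0 CPM for the shallowest, MEF-2F. Such a ratio keeps the other library's count as it is and is not the lower end of an interval.

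The labels were checked against marker genes. The 8 progenitor markers summed to 7720 CPM in pOPC, to 1211 to 2833 CPM in the converted libraries and to 144 to 165 CPM in the donors. The converted libraries also held Schwann cell markers, at 4647 CPM in MEF-2F and 1088 to 1601 CPM in the other 3, against 13.9 to 64.6 CPM in donors and pOPC. Fibroblast markers summed to 2685 to 8240 CPM in the converted libraries and to 3.08 CPM in pOPC. In PC the pericyte markers Rgs5, Kcnj8, Abcc9 and Vtn were at 0, whereas Pdgfrb, Anpep, Mcam and Notch3 were present. The same library held 601 CPM of mesothelial and epithelial markers, which summed to at most 8.86 CPM elsewhere. MEF held 13954 CPM of smooth muscle markers, against 0 to 367 CPM in the other 6 libraries, and all 5 microglial markers at a sum of 84.8 CPM. Xist, the RNA of the inactive X chromosome, had 1 UMI in MEF but stood at 56.4 CPM with 2 factors and 61.1 CPM with 3 in the fibroblast series. It had 0 UMIs in pOPC and stood at 17.0 CPM in PC, 22.5 CPM in PC-2F and 29.9 CPM in PC-3F. The part of these differences in the Notch gene levels was not tested.

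Regulatory letters were looked up in the 250 bases before the gene starts of the RefSeq annotation (GRCm38.p6), where 7 of the 9 genes matched; Hes1 and Hey1 are named only. The RBPJ motif GTGGGAA, searched on both strands, lay in 5.42% of 32851 such windows and, among the matched genes, in that of Hes5 alone. The Hes5 window, chr4:154960673-154960922 on the plus strand, holds it at 226 bases before the start on the opposite strand and at 83 bases before the start on the gene's strand. It is shown because Hes5 is a known RBPJ target and was detected in 3 of the 7 libraries only; capitals mark the motifs.
Hes5: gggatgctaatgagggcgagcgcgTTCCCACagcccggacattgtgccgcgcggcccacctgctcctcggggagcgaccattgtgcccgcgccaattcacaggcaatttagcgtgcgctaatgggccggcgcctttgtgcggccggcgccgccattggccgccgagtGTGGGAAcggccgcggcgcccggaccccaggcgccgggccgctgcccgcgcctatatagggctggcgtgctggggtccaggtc

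The E-box CAGCTG, a motif of the kind bound by basic helix-loop-helix proteins, reads the same on both strands and lay in 13.0% of the windows. It was present in windows of Dll1, Dll3, Jag1 and Hes6 and not in those of Notch1, Notch2 and Hes5. The Notch1 window lies before a RefSeq start 12841 bases from the GENCODE start, inside the gene span given below. Dll1 has another RefSeq start, 15375823, whose window holds no such motif. The stretches of 30 bases are shown on the minus strand, which carries all of these 4 genes, because Dll1, Dll3 and Hes6 were highest in pOPC; capitals mark the E-box. They lie at chr17:15377047-15377076 for Dll1, chr7:28301775-28301804 for Dll3, chr2:137116585-137116614 for Jag1 and chr1:91414192-91414221 for Hes6, where the motif begins 132, 7, 82 and 171 bases before the RefSeq start. The RefSeq starts of Dll3 and Jag1 lie 453 and 124 bases from the GENCODE starts, so both stretches fall inside the gene spans given below. The Dll3 stretch also runs past its RefSeq start, 28301785.
Dll1: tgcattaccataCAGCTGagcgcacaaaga
Dll3: tccggcatccagCAGCTGcgactcctgaga
Jag1: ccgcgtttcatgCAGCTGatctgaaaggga
Hes6: cggaagcggctgCAGCTGccaactgtcacg
These are matches of letters, not measured binding.

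The Delta genes separated primary progenitors from every other library. Dll1 and Dll3 stood at 61.6 and 129 CPM in pOPC and at no more than 13.1 CPM anywhere else. Notch2 and Hes1 had the opposite order, with 2 and 7 UMIs in pOPC and 26 to 469 UMIs in each donor or converted library. Jag1 and Hey1 followed neither order: they were present in MEF and nearly absent in PC, and both were higher in PC-2F than in PC. The plot of levels by library shows all 9 genes.

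**Figure D1:**
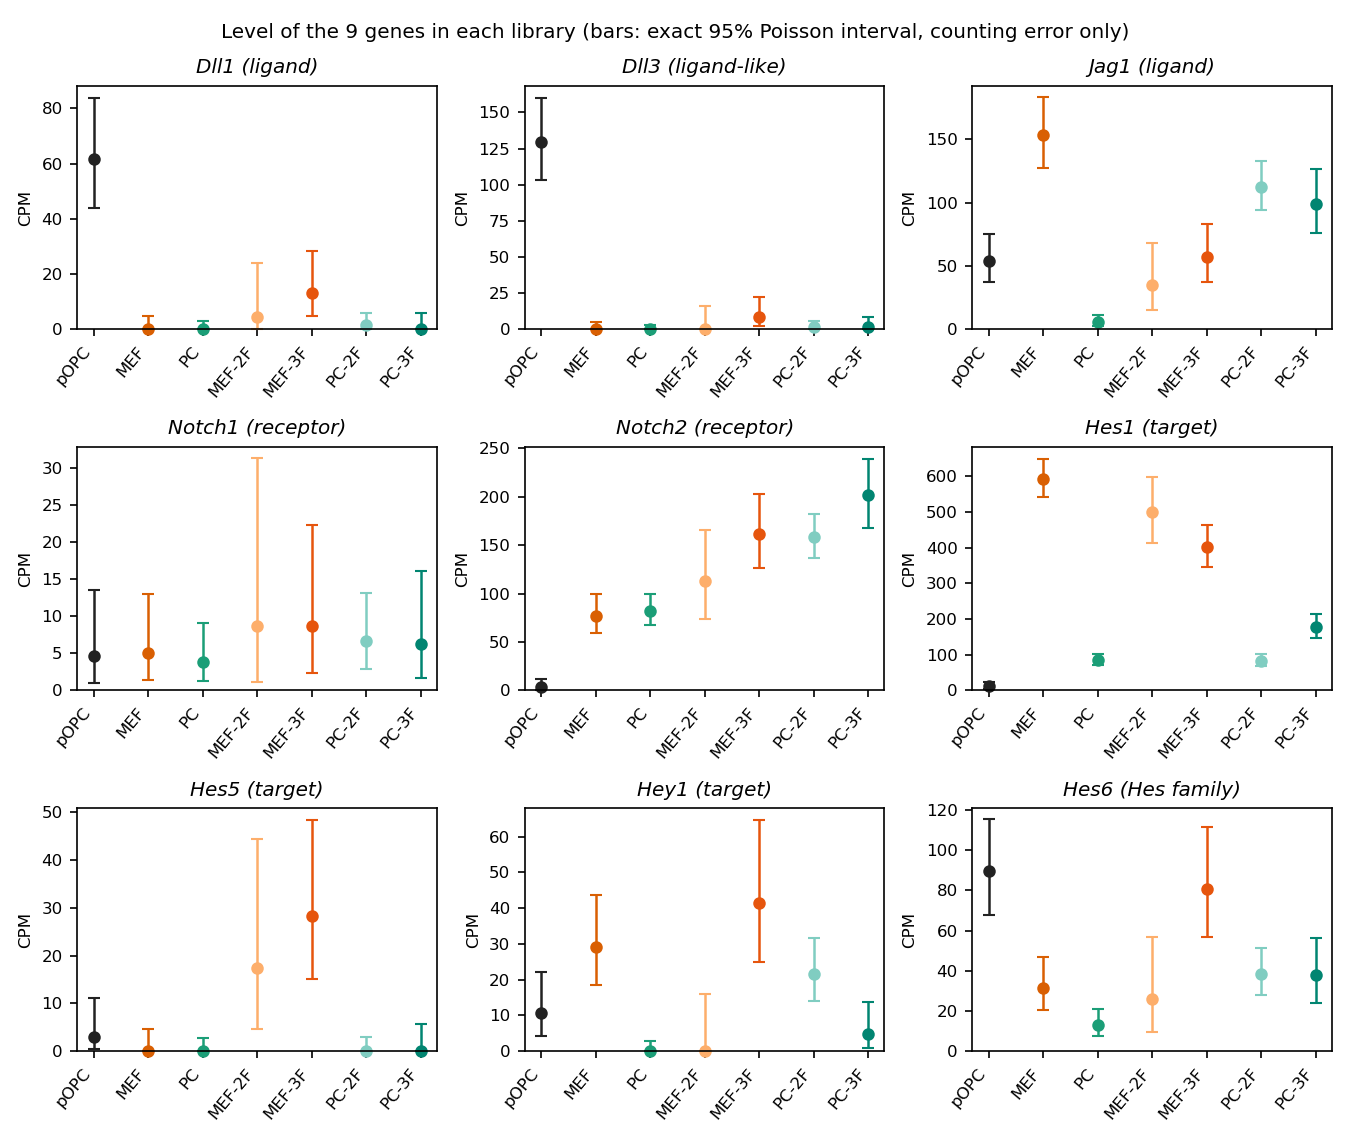
Level of each gene in CPM (y axis, its own scale per panel) in the 7 libraries (x axis), as points with exact 95% Poisson intervals that cover counting error only; n = 1 library per population. Dll1 and Dll3 stand at 61.6 and 129 CPM in pOPC and near 0 elsewhere, whereas Notch2 and Hes1 are lowest in pOPC.

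Dll1 (chr17:15367354-15376872, minus strand) encodes a Delta ligand that activates Notch on neighbouring cells. It had 40 UMIs in pOPC (61.6 CPM, 44.0 to 83.9), in 25 of 134 cells. MEF-3F had 6 UMIs (13.1 CPM, 4.81 to 28.5), PC-2F had 2, MEF-2F had 1, and MEF, PC and PC-3F had none. MEF-3F was thus the next library in order, 4.71-fold below pOPC (1.98 to 13.6), and the 6 UMIs lay in 6 different cells. Below MEF-3F no neighbouring pair in the order of levels had an interval of its ratio that excluded 1. A lincRNA, A930024N18Rik, overlaps Dll1 on the opposite strand and had 1 UMI in all.

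Dll3 (chr7:28293553-28302238, minus strand) encodes a divergent Delta protein that does not activate Notch on neighbouring cells and is known to dampen it in the cell that makes it. It had 84 UMIs in pOPC (129 CPM, 103 to 160) in 47 of 134 cells, 35.1% of them. MEF-3F had 4 UMIs (8.73 CPM), PC-2F had 2 (1.67 CPM) and PC-3F had 1 (1.57 CPM). MEF, PC and MEF-2F had none, with intervals that end at 4.67, 2.85 and 16.0 CPM. Every interval outside pOPC ended below 22.4 CPM, far under the lower end in pOPC. With each cell thinned to 1000 UMIs, 10.9% of pOPC cells would hold a Dll3 UMI against 1.02% in MEF-3F and at most 0.0804% elsewhere.

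Jag1 (chr2:137081456-137116644, minus strand), the other class of activating ligand, was shared between pOPC and the remaining cells. Its level was 153 CPM in MEF (127 to 183), 113 in PC-2F (94.4 to 133), 99.2 in PC-3F (76.2 to 127), 56.7 in MEF-3F (37.1 to 83.1), 53.9 in pOPC (37.6 to 75.0), 34.7 in MEF-2F (15.0 to 68.4) and 5.41 in PC (2.18 to 11.2). PC-2F and PC-3F did not differ beyond counting error, nor did MEF-3F, pOPC and MEF-2F as neighbours in this order. Single cells reached 10 Jag1 UMIs in MEF, and no PC cell had more than 1.

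The donors were therefore far apart in Jag1 and the converted libraries closer together. Against its donor Jag1 was 4.41-fold lower in MEF-2F (2.17 to 10.5) and 2.70-fold lower in MEF-3F (1.76 to 4.30). It was 20.8-fold higher in PC-2F (9.82 to 52.7) and 18.3-fold higher in PC-3F (8.39 to 47.4). The lower call in MEF-3F was lost when cells over 3 times the median UMIs were left out, 20 of 161 in that library, with 73.6 against 139 CPM. In PC the 39 cells of the first barcode block held 3 of the 7 UMIs (18.7 CPM) and the 251 cells of the second 4 (3.53 CPM).

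Receptor transcripts were few for Notch1 (chr2:26457903-26516663, minus strand) in every library. It had 8 UMIs in PC-2F, 5 in PC, 4 each in PC-3F, MEF and MEF-3F, 3 in pOPC and 2 in MEF-2F, always at most 1 per cell. These are 3.87 to 8.73 CPM, no neighbouring pair in the order differed beyond counting error, and no comparison could be made at this depth. An antisense transcript, 0610009E02Rik, overlaps Notch1 and had 1 UMI in all.

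Notch2 (chr3:98013527-98150361, plus strand), the other receptor, was the one carried by fibroblasts, pericytes and converted cells. Its level was 3.08 CPM in pOPC (0.373 to 11.1), 77.2 in MEF (59.1 to 99.2), 82.0 in PC (67.1 to 99.2), 113 in MEF-2F (73.7 to 165), 158 in PC-2F (137 to 183), 161 in MEF-3F (127 to 203) and 201 in PC-3F (168 to 240). Both donors were alike within counting error, and each step from PC up to PC-3F in the order had an interval that included 1. Thinned to 1000 UMIs, 0.524% of pOPC cells, 8.37% of MEF cells and 7.14% of PC cells would hold a Notch2 UMI, against 11.6% to 17.7% in the converted libraries.

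The Notch2 level of the converted libraries was at or above that of the donors. Notch2 was 2.09-fold higher in MEF-3F than in MEF (1.47 to 2.98) and 2.46-fold higher in PC-3F than in PC (1.88 to 3.21). The ratio was 1.93 for PC-2F against PC (1.52 to 2.47), just under the 2-fold threshold, and 1.46 for MEF-2F against MEF (0.886 to 2.35). The call in MEF-3F did not hold with trimmed-mean scaling, with counts limited to 3 UMIs per gene and cell (184 against 121 CPM), without cells over 3 times the median UMIs (165 against 85.5 CPM) or in the first barcode block of that library (122 CPM). In the first block of PC, 4 UMIs gave 25.0 CPM against 90.0 CPM in the second.

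Hes1 (chr16:30064384-30067796, plus strand), the repressor most widely induced by Notch but also by other signals, had the largest absolute span of levels in CPM. It stood at 594 CPM in MEF (541 to 650), 499 in MEF-2F (412 to 599), 402 in MEF-3F (346 to 464), 178 in PC-3F (147 to 214), 85.1 in PC (69.9 to 103), 82.5 in PC-2F (67.1 to 100.5) and 10.8 in pOPC (4.34 to 22.2). The 3 libraries of fibroblast origin were the highest, and neighbours among them had intervals of the ratio that included 1. PC and PC-2F did not differ beyond counting error, and pOPC lay 7.65-fold below PC-2F (3.58 to 19.5), the next library in order.

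Within the fibroblast series Hes1 stayed under the 2-fold threshold. It was 1.19-fold lower in MEF-2F than in MEF (0.969 to 1.47) and 1.48-fold lower in MEF-3F (1.24 to 1.76). In the pericyte series it was 1.03-fold lower in PC-2F than in PC (0.779 to 1.37) and 2.09-fold higher in PC-3F (1.59 to 2.74). That last call was lost without PC cells over 3 times the median UMIs (178 against 93.3 CPM) and against the first block of PC alone (93.7 CPM). Hes1 was also the member with the most UMIs in a single cell, 15 in MEF.

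Hes5 (chr4:154960923-154962371, plus strand), the target most tied to neural and glial precursors, was detected in few cells of any library. It had 13 UMIs in MEF-3F (28.4 CPM, 15.1 to 48.5), 4 in MEF-2F (17.4 CPM, 4.73 to 44.4) and 2 in pOPC (3.08 CPM), and 0 in MEF, PC, PC-2F and PC-3F. Transcripts were thus seen in both fibroblast-derived converted libraries and in neither pericyte-derived one. The 13 UMIs of MEF-3F came from 7 of 161 cells, and 1 of these cells held 6 Hes5 and 6 Hes6 UMIs. Sox10 had UMIs in 3 of the 7 cells, Olig2 in 6 and Sox2 in 6. Both Hes5 cells of MEF-2F had 2 UMIs each, with 6 and 5 UMIs of Hes1. Each held 1 UMI of Olig2 and none of Sox10 or Sox2.

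Against MEF the Hes5 level of MEF-3F was 7.47-fold higher with the 0 of MEF set at 3 UMIs, and the interval of the log2 ratio starts at 2.39. Against pOPC it was 9.20-fold higher (2.08 to 84.0) from 13 and 2 UMIs. Without cells over 3 times the median UMIs Hes5 was at 17.5 CPM in MEF-3F, under the 20 CPM needed to count as measured. By block it was 11.1 CPM in the first (1 UMI) and 32.6 CPM in the second (12 UMIs).

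Hey1 (chr3:8663359-8667256, minus strand), a target that partners with Hes proteins and is prominent in vascular cells, was absent from PC. It stood at 41.5 CPM in MEF-3F (25.0 to 64.8), 29.1 in MEF (18.5 to 43.7), 21.7 in PC-2F (14.2 to 31.8), 10.8 in pOPC (4.34 to 22.2) and 4.72 in PC-3F (0.974 to 13.8), with 0 UMIs in PC and MEF-2F. No neighbouring pair in this order differed beyond counting error. MEF-2F was the shallowest library, and the interval of its 0 ends at 16.0 CPM.

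With the 0 set at 3 UMIs, the Hey1 level was 9.34-fold higher in PC-2F than in PC and 2.24-fold lower in MEF-2F than in MEF. The intervals of the log2 ratios reach down to 2.82 and up to -0.746, the latter short of 2-fold. MEF-3F held Hey1 at 99.6 CPM in the first block (9 UMIs in 4 cells) and 27.2 CPM in the second (10 UMIs in 9 cells). The call for MEF-2F was lost in its second block and the one for PC-2F against the first block of PC, both small blocks of 17 and 39 cells.

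Hes6 (chr1:91411483-91414038, minus strand) is a Hes-family protein that opposes HES1 and is expressed in committed neural precursors rather than induced by Notch. It was highest in pOPC at 89.4 CPM (67.9 to 116) and next in MEF-3F at 80.7 CPM (56.9 to 111), which did not differ beyond counting error over the whole library. On the first barcode block of MEF-3F (22.1 CPM) Hes6 was called lower than in pOPC. The other levels were 38.4 CPM in PC-2F (28.1 to 51.2), 37.8 in PC-3F (24.2 to 56.2), 31.7 in MEF (20.5 to 46.7), 26.0 in MEF-2F (9.55 to 56.7) and 13.1 in PC (7.66 to 21.1). In Dll1 and Dll3 the same 2 libraries stood 4.71-fold and 14.8-fold apart.

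Compared with the donors, Hes6 was 2.92-fold higher in PC-2F (1.64 to 5.43), 2.87-fold in PC-3F (1.48 to 5.70) and 2.55-fold in MEF-3F, while MEF-2F was 1.22-fold below MEF (0.487 to 3.62). Nearly all Hes6 of MEF-3F lay in its second barcode block, with 35 UMIs (95.2 CPM) against 2 (22.1 CPM) in the first; on the first block alone the direction against MEF turned. The call against MEF was also lost with counts limited to 3 UMIs per gene and cell (90.7 against 49.7 CPM). Both calls against PC were lost on the first block of PC, which had 18.7 CPM.

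For counts over the 9 genes, a gene was measured at 10 UMIs and 20 CPM in either library and called at 2-fold with an interval that excludes 1. In MEF-2F against MEF 0 of 5 measured were higher and 2, Jag1 and Hey1, lower; over all genes 18.9% were called higher and 14.7% lower. MEF-3F against MEF had 3 of 6 higher, Notch2, Hes5 and Hes6, and 1 lower, Jag1, beside 23.6% and 12.7% of all genes. In PC-2F against PC 3 of 5 were higher, Jag1, Hes6 and Hey1, and none lower, beside 17.7% and 12.8%. PC-3F against PC had 4 of 4 higher, Notch2, Jag1, Hes1 and Hes6, beside 18.8% higher and 15% lower. The median log2 ratio of the measured genes was -0.25, 0.79, 1.52 and 1.40 in these comparisons, beside 0.05, 0.27, 0.05 and 0.05 over all genes. Jag1 alone of the 9 was called against the donor in all 4, lower in the fibroblast series and higher in the pericyte series. PC-2F and PC-3F share the PC library, and MEF-2F and MEF-3F the MEF library, so each pair is not independent.

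**Figure D2:**
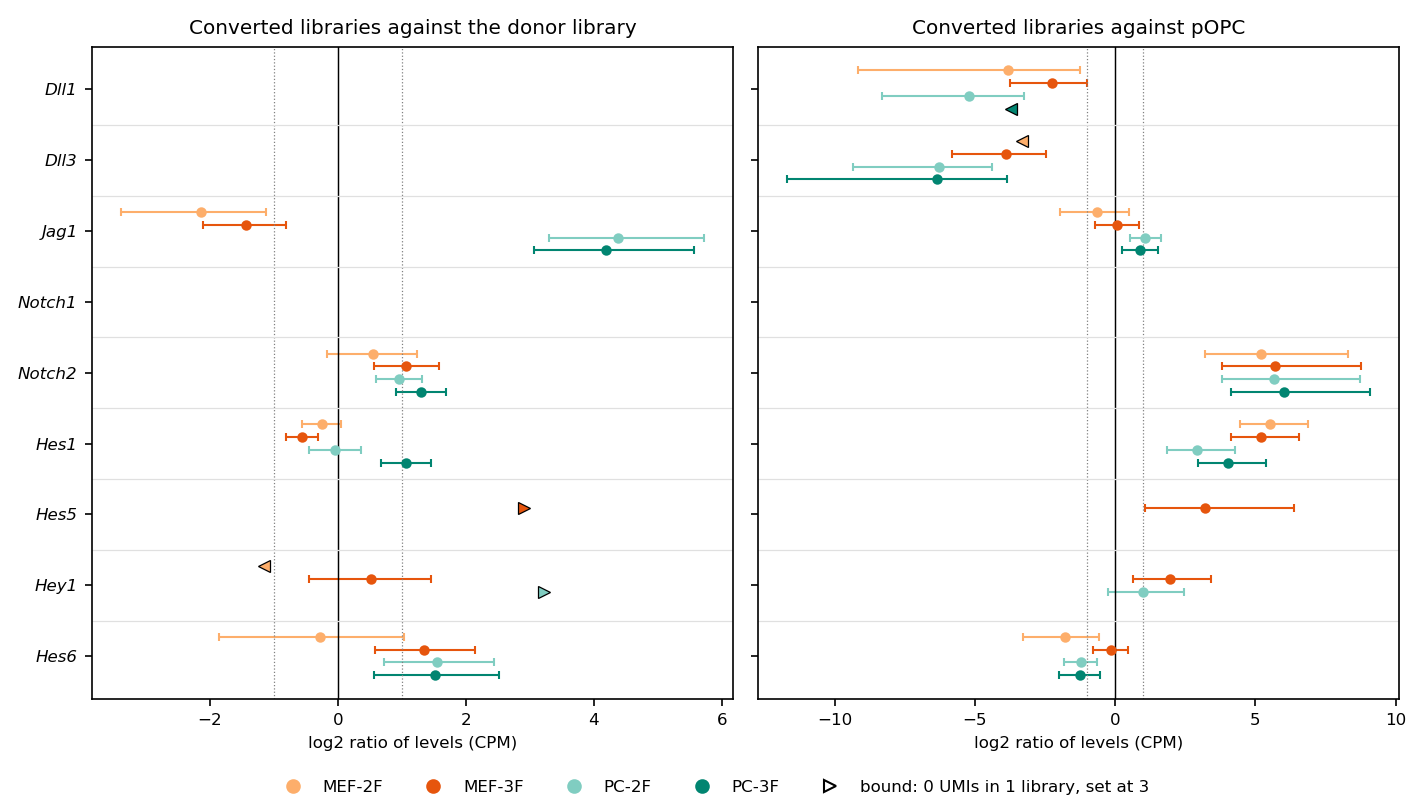
Log2 of the ratio of levels of each measured gene (rows) in the 4 converted libraries against the donor library (left) and against pOPC (right), with exact 95% intervals for counting error. Dotted lines mark 2-fold. Triangles are ratios with the library at 0 UMIs set at 3, shown without an interval. Jag1 lies left of 0 in both fibroblast-derived and right of 0 in both pericyte-derived libraries on the left, and Notch2 and Hes1 lie right and Dll1 and Dll3 left of 0 in all 4 libraries on the right.

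Set against pOPC, Notch2 and Hes1 were called higher and Dll1 and Dll3 lower in all 4 converted libraries. In MEF-2F 2 of 6 measured were higher, Notch2 and Hes1, and 3 lower, Dll1, Dll3 and Hes6, beside 18.7% and 24.3% of all genes. MEF-3F had 4 of 8 higher, Notch2, Hes1, Hes5 and Hey1, and 2 lower, Dll1 and Dll3, beside 20.5% and 18.7%. PC-2F had 3 of 7 higher, Notch2, Jag1 and Hes1, and 3 lower, Dll1, Dll3 and Hes6, beside 20.4% and 20.3%. PC-3F had 2 of 6 higher, Notch2 and Hes1, and 3 lower, Dll1, Dll3 and Hes6, beside 19.4% and 20.8%. Of the donors, MEF had 4 of 7 higher and 3 lower, beside 19.8% and 31.3%, and PC 2 of 6 higher and 4 lower, beside 21% and 26.6%. Median log2 ratios were -1.12, 0.98, 0.93 and -0.18 in the converted libraries in this order, beside -0.29, -0.04, -0.16 and -0.19 over all genes. These 6 comparisons share the pOPC library.

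The sizes of these differences were large for Delta genes, Notch2 and Hes1. Dll3 was 14.8-fold lower in MEF-3F (5.58 to 55.7), 77.6-fold in PC-2F (20.8 to 652) and 9.95-fold in MEF-2F with the 0 set at 3 UMIs. In MEF-2F the interval of the Dll3 log2 ratio reaches up to -2.98. Notch2 was 36.6-fold higher in MEF-2F (9.16 to 318) to 65.4-fold in PC-3F (17.7 to 545), from 2 UMIs in pOPC. Hes1 was 7.65-fold higher in PC-2F and 46.3-fold in MEF-2F (21.7 to 118). The Jag1 call in PC-2F (2.09-fold, 1.43 to 3.12) was lost among cells with a Sox10 UMI (89.7 CPM), and PC-3F, at 1.84-fold, passed 2-fold with trimmed-mean scaling. Hes6 in PC-2F was 2.33-fold lower than in pOPC and no longer called with that scaling. The Hes5 and Hey1 calls of MEF-3F were lost without cells over 3 times the median UMIs, and its Dll1 call on its first block (2 UMIs, 22.1 CPM).

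Libraries with 3 and with 2 factors differed in up to 2 of these genes. MEF-3F against MEF-2F had 2 of 6 measured higher, Hes6 (3.10-fold, 1.30 to 8.99) and Hey1 (3.19-fold with the 0 set at 3 UMIs), and none lower, beside 9.37% and 7.01% of all genes. The interval of that Hey1 log2 ratio starts at 1.23. On first blocks alone Hes6 turned to 22.1 against 33.1 CPM, and neither gene was called when only cells with a Sox10 UMI were used. PC-3F against PC-2F had 1 of 5 higher, Hes1 (2.15-fold, 1.63 to 2.85), and 1 lower, Hey1 (4.59-fold, 1.41 to 23.7), beside 5.08% and 5.98%. With counts limited to 3 UMIs per gene and cell Hes1 stood at 209 against 109 CPM and was not called. Among cells with a Sox10 UMI Hey1 was no longer measured.

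Insm1, a zinc-finger gene of committed neural precursors, had 17 UMIs in pOPC and none elsewhere. Dner, a neural non-canonical ligand, stood at 208 CPM in pOPC, 28.4 CPM in MEF-3F and at most 17.4 CPM elsewhere. Dlk1, a Delta-like protein without the domain that activates Notch, was instead a fibroblast gene, with 205 CPM in MEF-3F, 121 in MEF-2F and 63.3 in MEF, 1 UMI in pOPC and 0 in all 3 pericyte libraries.

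These genes belong to a list of 68 other pathway genes by role, of which 61 had a count in some library; Dll4 was among those with none. Of the remaining receptors, Notch3, known from mural cells, stood at 39.1 CPM in MEF-2F, 35.5 in MEF, 26.2 in MEF-3F, 14.2 in PC-2F, 6.19 in PC and 4.72 in PC-3F, with 0 UMIs in pOPC. Notch4, an endothelial receptor, was lower than in PC (20.9 CPM) in PC-2F (6.67 CPM) and PC-3F (3.15 CPM). Jag2, the second Jagged ligand, had 2 UMIs in MEF and in PC-2F and none elsewhere. Lfng, which sugars Notch and biases it toward Delta, never passed 8 UMIs. The targets Heyl, with 9 UMIs in MEF alone, and Nrarp, with at most 6 UMIs, added no measured gene.

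Against the donors, 12 of 37 measured genes of this list were called higher and 1 lower in MEF-2F, beside 18.9% and 14.7% of all genes, and 11 and 0 of 37 in MEF-3F, beside 23.6% and 12.7%. For PC-2F 10 of 35 were higher and 5 lower, beside 17.7% and 12.8%, and for PC-3F 9 of 36 and 5, beside 18.8% and 15%. Median log2 ratios were 0.87, 0.65, 0.33 and 0.09, beside 0.05, 0.27, 0.05 and 0.05 over all measured genes.

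Of 10 measured corepressors 2 were called higher than the donor in MEF-3F, beside 23.6% of all genes. In each other converted library 4 were called higher, beside 17.7% to 18.9% of all genes. The 1 called lower was in PC-2F, beside 12.8%. Tle1 and Tle4, Groucho proteins that Hes repressors recruit, were called higher than the donor in all 4. Tle4 was 7.11-fold higher than the donor in MEF-3F (3.22 to 17.8), 4.71-fold in MEF-2F, 4.31-fold in PC-2F and 2.81-fold in PC-3F. Numb, an adaptor that removes Notch from the membrane, had donor levels of 19.0 CPM (MEF) and 17.8 CPM (PC) and converted levels between 81.7 CPM (PC-2F) and 100.4 CPM (MEF-3F). It was 4.57-fold (2.22 to 9.59) to 5.29-fold (2.90 to 10.2) higher than the donor. Numb in pOPC was 37.0 CPM, below all 4 converted libraries, whereas Tle4 was highest in pOPC at 145 CPM.

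Within the nuclear complex Rbpj, the DNA-binding partner of Notch, stood apart in PC at 245 CPM, against 38.0 in MEF, 46.2 in pOPC and 59.2 to 74.2 in the converted libraries. It was 4.14-fold lower than PC in PC-2F (3.19 to 5.44) and 3.54-fold in PC-3F (2.58 to 4.97). Maml2, a Mastermind coactivator, was called higher than the donor in all 4 converted libraries, from 2.24-fold in MEF-3F to 5.04-fold in PC-3F, and was at 117 CPM in pOPC. Among cleavage enzymes Ncstn, a gamma-secretase subunit, was called higher in both fibroblast-derived libraries (169 and 127 CPM against 55.7). Adam17, of the same role, was called higher in both pericyte-derived ones (181 and 161 CPM against 69.6).

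Some negative regulators and repressors stood apart in the pericyte series. Dtx4, a ubiquitin ligase of the Deltex family, was 33.4-fold lower in PC-2F than in PC (8.92 to 281) and 7.08-fold in PC-3F (2.90 to 22.5), from 55.7 CPM in PC. Bhlhe41 was 5.24-fold and 4.72-fold lower than in PC (74.3 CPM). Bhlhe40, its stress-responsive relative, had 1 UMI in pOPC and 60.3 to 152 CPM in the other 6 libraries. Hey2 stood at 24.1 CPM in MEF and had 0 UMIs in MEF-2F and PC, the same 2 libraries that lacked Hey1.

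**Figure D3:**
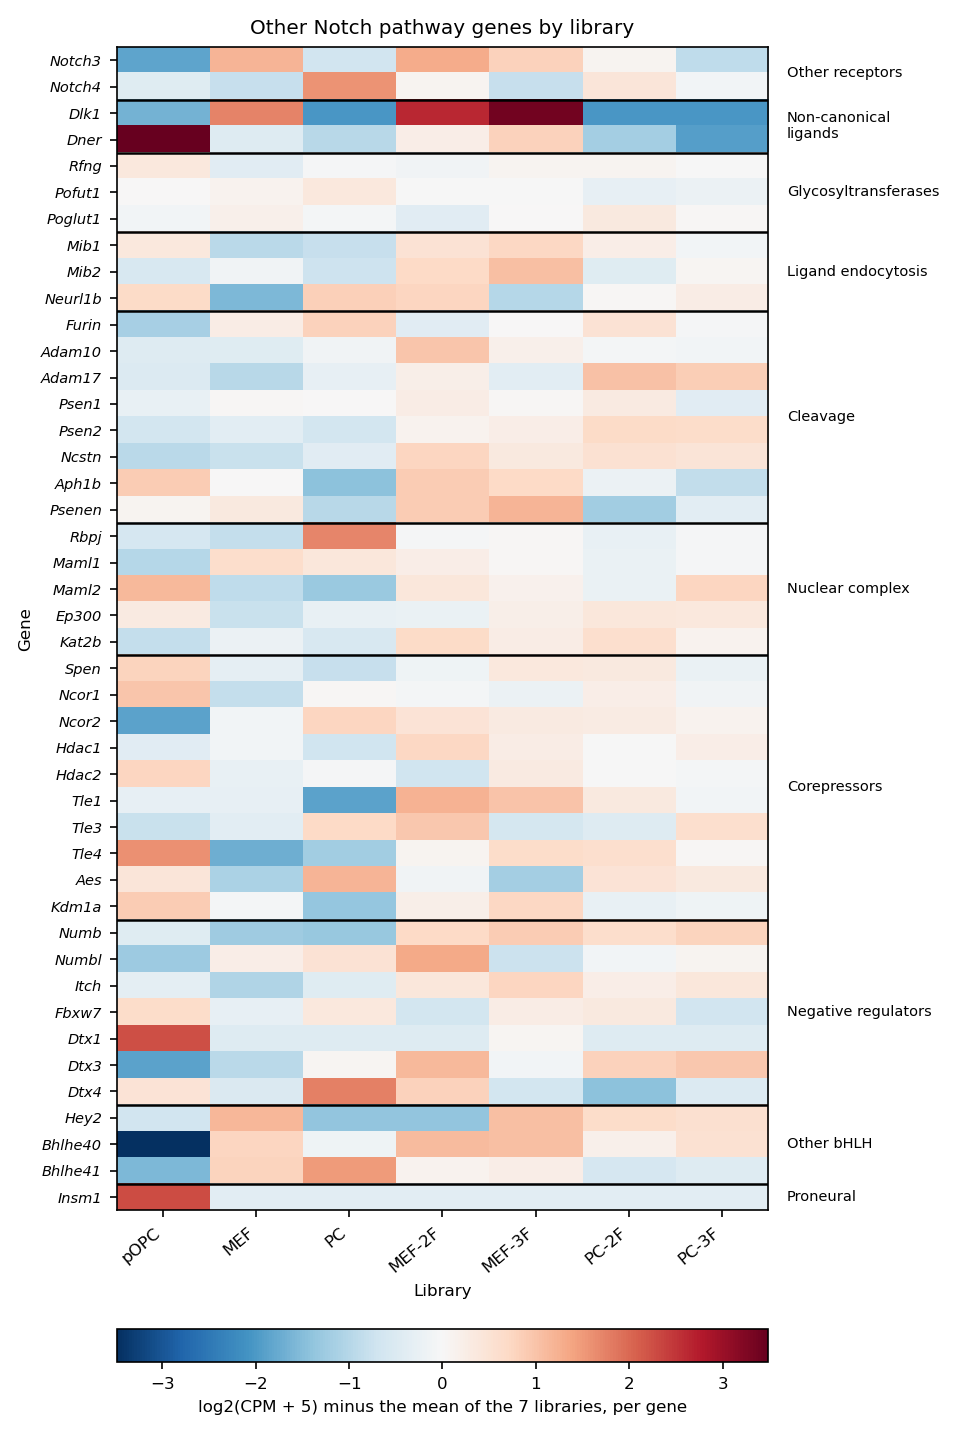
Other pathway genes with 10 UMIs and 20 CPM in at least 1 library, 44 of them (rows, by role) in the 7 libraries (columns), coloured by log2(CPM + 5) minus the gene's mean over the libraries, so that colours compare libraries within a gene and not genes with each other. Dner and Insm1 are red in pOPC, Rbpj in PC and Dlk1 in MEF and both fibroblast-derived libraries, while Bhlhe40 is blue in pOPC.

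In pOPC, cells were next compared by which genes they held. A UMI of Dll1 or Dll3 was found in 53 of 134 cells, 39.6% (31.2% to 48.4%, exact binomial interval). Of the 25 cells with Dll1, 19 also had Dll3, where the product of the shares of cells gives 8.77. Hes6 was found in 44 cells, of which 21 also had Dll3, where the product gives 15.4. No pOPC cell held Notch2 and Hes1 together, but the product gives 0.104 cells, too few for this 0 to be informative. None of the 9 genes was found in 50 cells.

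Cells of pOPC with a Dll3 UMI, a grouping made after the values were seen, were deeper than those without, with medians of 5438 and 2491 UMIs, so levels in CPM are given instead of shares. Dll1 stood at 99.6 CPM in the 47 cells with Dll3 and at 22.1 CPM in the 87 without, a ratio of 4.51 (1.96 to 12.1). Hes6 was at 96.5 and 81.9 CPM, a ratio of 1.18 (0.681 to 2.06). All 7 Hes1 UMIs of pOPC lay in cells with Dll3. Mki67, a gene of dividing cells, was at 287 CPM with Dll3 and 432 CPM without (0.664, 0.506 to 0.869). Top2a, another such gene, was at 884 and 1027 CPM (0.861, 0.733 to 1.01), with an interval that includes 1. Olig2, which marks the lineage, was at 1672 and 1556 CPM (a ratio of 1.07). Which part depth had in these differences was not tested.

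Neuronal markers were present in the pOPC library, 6 of 7 of them at a summed 931 CPM, so the Delta genes were read again by neuronal content. In the 67 cells at or below the median share of these markers Dll3 was at 160 CPM, Dll1 at 59.9 and Hes6 at 99.8. The 67 cells above it had 110, 62.8 and 82.8 CPM. The intervals of both sets of cells overlapped for each of the 3 genes and are wide, 114 to 217 CPM for Dll3 in the cells at or below the median. The part of neuronal content in these levels was not tested.

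**Figure D4:**
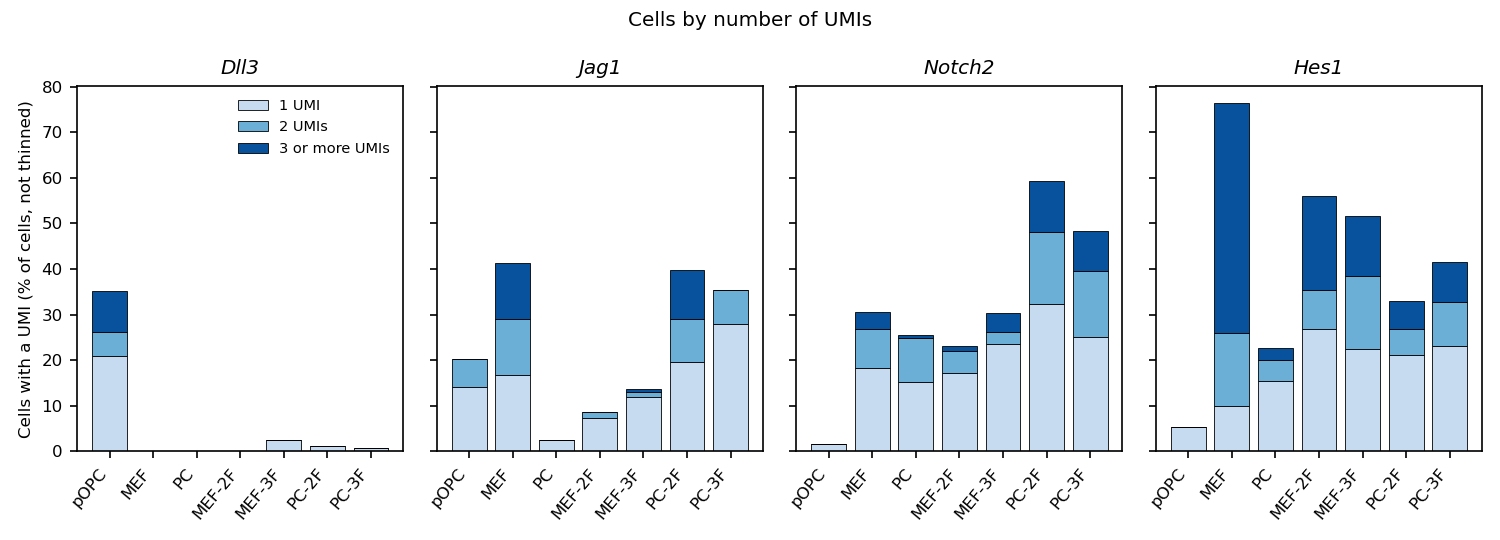
Share of cells (y axis, percent, not thinned to equal depth) with 1, 2 or 3 or more UMIs of Dll3, Jag1, Notch2 and Hes1 in the 7 libraries (x axis); libraries differ in depth, which moves these shares. Dll3 was found in 35.1% of pOPC cells, and Hes1 in 76.3% of MEF cells and 5.22% of pOPC cells.

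In donor and converted cells Notch2 and Hes1 were found together in 36 of 147 PC-3F cells, 33 of 179 PC-2F cells and 23 of 290 PC cells, and in 29 of 161 MEF-3F cells, 10 of 82 MEF-2F cells and 33 of 131 MEF cells. The products of the shares give 29.5, 34.9, 16.8, 25.3, 10.7 and 30.5 cells in the same order, so most counts lay near them. A UMI of Dll1 or Dll3 was seen in 10 MEF-3F cells, 6.21% (3.02% to 11.1%), in 4 PC-2F cells and in 1 cell each of MEF-2F and PC-3F. In MEF-3F none of the 6 Dll1 cells had Dll3, but the product of the shares gives 0.149 cells, too few for this 0 to be informative. Hes1 was found in 4 of these 6 Dll1 cells, where the product of the shares gives 3.09, and in 3 of the 25 Dll1 cells of pOPC, where it gives 1.31. Each Dll1 or Dll3 cell of MEF-3F held a single UMI of that gene.

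Sox10 comes from the virus or the cell's own gene, which these counts do not separate, and marks converted cells only in part because a cell can miss it at this depth. It had a UMI in 100 of 179 PC-2F, 65 of 147 PC-3F, 50 of 161 MEF-3F and 14 of 82 MEF-2F cells, against 5 of 131 MEF and 0 of 290 PC cells. In PC-2F Hes1 was at 55.2 CPM with Sox10 and 124 CPM without, a ratio of 0.444 (0.290 to 0.675). Jag1 was at 89.7 and 147 CPM there (0.609, 0.428 to 0.866) and Notch2 at 135 and 194 CPM (0.698, 0.520 to 0.938). Notch3, the mural receptor, had 1 UMI in the 100 PC-2F cells with Sox10 and 16 in the 79 without. With and without Sox10 it had 2 and 1 UMIs in PC-3F, 6 and 6 in MEF-3F and 0 and 9 in MEF-2F.

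**Figure D5:**
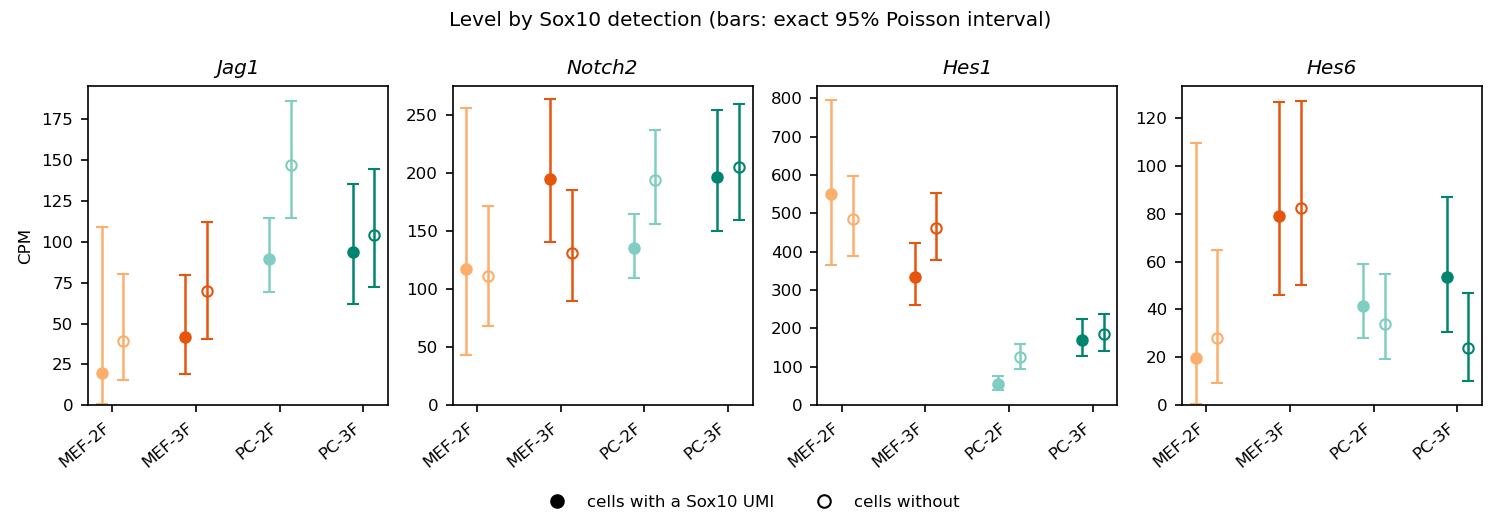
Level of Jag1, Notch2, Hes1 and Hes6 in CPM (y axis) in cells with (filled) and without (open) a Sox10 UMI in the 4 converted libraries (x axis), with exact 95% Poisson intervals for counting error. In PC-2F Hes1 is at 55.2 CPM with Sox10 and 124 without, while in PC-3F the values are 170 and 185.

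In PC-3F the values with and without Sox10 lay closer. There Hes1 was at 170 and 185 CPM with and without Sox10 (0.923, 0.625 to 1.36), Notch2 at 197 and 205 and Jag1 at 93.5 and 104. MEF-3F had Hes1 at 335 and 460 CPM (0.727, 0.533 to 0.987) and Notch2 at 195 and 132 (1.48, 0.915 to 2.43). In MEF-2F, with 14 Sox10 cells, Hes1 was at 549.5 and 485 CPM. A pair of fibroblast genes was read beside them. Dcn with and without Sox10 was at 46.8 and 920 CPM in PC-3F, at 82.8 and 364 CPM in PC-2F and at 302 and 111 CPM in MEF-3F, and had 0 UMIs with Sox10 against 284 CPM without in MEF-2F. Col3a1 was at 1306 and 1220 CPM in PC-3F (1.07, 0.929 to 1.23), at 346 and 819 CPM in PC-2F, at 2298 and 2825 CPM in MEF-3F and at 1452 and 3119 CPM in MEF-2F. In PC-2F Hes1, Dcn and Col3a1 were all lower with Sox10 by intervals that exclude 1, and in PC-3F Dcn alone of these 3 was. Their part in the Notch gene levels was not tested. Whether Sox10 splits differ between libraries was not tested.

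Genes with the profile over the 7 libraries most like that of each member were listed from 6665 candidates by the smallest root mean square distance of centred log2(CPM + 5) values. They describe likeness over 7 points only. Nearest to Dll1 were Myt1, Tmem178 and Epb4.1, with distances of 0.18 to 0.21; Myt1, a zinc-finger factor of neural and oligodendrocyte precursors, stood at 87.9 CPM in pOPC and at most 15.3 CPM elsewhere. Nearest to Dll3 were AI854517, Kcnd3 and Omg (0.20 to 0.25), the last encoding a myelin glycoprotein at 160 CPM in pOPC and 10.9 in MEF-3F, with 0 UMIs in the other 5 libraries.

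For Notch2 the nearest were Ifi27, Kirrel and Plin3 (0.35 to 0.37), all at most 4.62 CPM in pOPC. Jag1 had Lmcd1, Dact1 and Spats2l (0.41 to 0.43), of which Dact1, a Wnt pathway modulator, stood at 79.8 CPM in MEF and 0.773 in PC. Profiles nearest to Hes1 were those of Fkbp7, Fzd8 and Pdgfd (0.66 to 0.67), each with 0 UMIs in pOPC. Hes6 had Sugp2, Klhl7 and Fam115a (0.18 to 0.22), and Hey1 had Cox5a, Clcn5 and Micu3 (0.44 to 0.64). Notch1, whose few UMIs leave a profile set largely by the 5 CPM added, was nearest to Ehbp1, Gtf2ird1 and Gfpt1. Hes5 had too few UMIs for this listing.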

How the data were processed

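Cells were captured on a ddSEQ system and counted from 3′ ends with cell barcodes and UMIs, per the labels' protocols. Per the submitters' processing notes the genome build was mm10 and the tools included STAR 2.5.3a, UMI-tools 0.5.3 and featureCounts 1.6.1. The matrices deposited by the authors hold whole numbers whose meaning no label gives and which are not UMI counts themselves. Each was read as the place, from 0, of a UMI count in the text-sorted list of counts that occur in a block of barcodes; PC, MEF-2F and MEF-3F join 2 such blocks. This reading is an inference, and every value rests on it. Codes for counts of 1 to 20, which cover all 9 genes, were decoded with a probability of at least 0.9994. Codes placed with near certainty held 91.1% to 99.2% of UMIs. For the 9 genes the doubt therefore lies in library totals only. Marker genes with higher counts per cell, such as Acta2 with up to 414 UMIs in a MEF cell, carry it in their own levels too. On data simulated from the decoded frequencies and coded by the same rule, at least 99.8% of nonzero entries were recovered exactly. Because the simulation assumes that rule, it cannot test the reading itself.

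Barcodes with 500 or more UMIs and under 20% mitochondrial UMIs were kept. Doublets were not called; an alternative leaves out cells over 3 times the median. Ratios have exact conditional binomial intervals and shares Clopper-Pearson intervals (95%); log2 ratios add 0.5 UMIs. A ratio against 0 UMIs is called by its interval alone. Cells of 1 library are not replicates. Coordinates are from GENCODE M21 on GRCm38, the assembly named mm10. Thinned shares are expected values. The plan took the deposited values for counts. The 9 genes, the pathway list, the markers and all rules were chosen with earlier results of these data known. Named genes are the 9 members, the 3 nearest profiles of each with 30 UMIs or more, and up to 3 pathway genes with the largest ratios per role and direction, and always Notch3, Rbpj, Heyl, Jag2, Lfng, Dlk1 and Nrarp. Insm1, Bhlhe40, Hey2 and other pathway genes outside that rule were chosen after their values were seen. 1 listed gene is counted but not reported here. Python 3.11.15, numpy 2.4.6, scipy 1.17.1 and matplotlib 3.10.9 were used.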

Additional observations from a re-analysis of the deposited data

Results flagged for a closer look

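Jag1 differed from the donor in opposite directions in the fibroblast and the pericyte series, which is why it is listed here. Its log2 ratio was -2.06 in MEF-2F against MEF and 4.28 in PC-2F against PC. With 3 factors it was -1.41 in MEF-3F against MEF and 4.11 in PC-3F against PC. Hey1 did the same with 2 factors, at -3.78 in MEF-2F against MEF and 5.84 in PC-2F against PC, but each of these values rests on 1 library with 0 UMIs and depends on the 0.5 UMIs added. The difference between the series was not tested, since each population is 1 library.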

How the results depend on the processing

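Over 164 recomputed counts of called members, 135 stayed within 1.5 times and 29 did not. Of the recomputed ratios of single genes 947 moved less than their counting interval, 22 moved more and 2 reversed. The 947 include 71 ratios each from the 4-fold threshold, the 100 CPM minimum, no minimum level and shared barcodes left out. These settings reuse the same counts, so their ratios could not move. The 12 counts with shared barcodes left out could not move either. With a minimum of 100 CPM the number called was 2 in PC-3F, 1 in PC-2F, 2 in MEF-3F and 1 in MEF-2F against the donor. Against pOPC it was 3 in each converted library, 3 in MEF and 1 in PC, and it was 0 in MEF-3F against MEF-2F and 1 in PC-3F against PC-2F; fewer members are measured there by construction. A 4-fold threshold left 1 in MEF-3F against MEF, 1 in PC-3F against PC, 4 in MEF against pOPC and 1 in each comparison of 3 with 2 factors. The one in MEF-3F against MEF-2F is Hey1, whose ratio is 3.19-fold with the 0 set at 3 UMIs: a gene with 0 UMIs in 1 library counts as past any fold once its interval excludes 1. Without cells over 3 times the median UMIs, 1 was called in MEF-3F against MEF and 1 in MEF-3F against MEF-2F. With at most 3 UMIs per gene and cell, 2 were called in MEF-3F against MEF and 1 in PC-3F against PC-2F. On first barcode blocks the count was 2 in MEF-3F against MEF, 2 in PC-3F against PC and 0 in MEF-3F against MEF-2F, and on second blocks 1 in the last. The log2 ratio of Hes6 on the first block reversed to -0.22 in MEF-3F against MEF and -0.38 against MEF-2F. Among converted cells with a Sox10 UMI, chosen after seeing the data, 1 was called in MEF-2F against MEF, 2 in MEF-2F against pOPC, 0 in MEF-3F against MEF-2F and 1 in PC-3F against PC-2F. The cause of these shifts was not tested. Among the pOPC cells poor in neuronal markers, an alternative also added after seeing the data, all 6 counts stayed within 1.5 times.

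Trimmed-mean scaling shifted every log2 ratio by -0.28 in MEF-2F and MEF-3F against MEF, by 0.36 in MEF and 0.31 in PC against pOPC, by 0.19 in PC-3F and 0.23 in PC-2F against pOPC, and by less than 0.07 elsewhere. With 20 instead of 5 CPM added, 11 of the 24 nearest genes remained. No paired analysis was possible because each population is 1 library. Leaving out shared barcodes changed nothing, since there were none.

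MEF-2F had the fewest UMIs, and the interval of a member at 0 there reaches up to 16.0 CPM.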
